A study of Mus musculus with 4 samples.

Results

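Alpha cells are the glucagon-producing endocrine cells of the pancreatic islet. Here they are the barcodes in which Gcg, the proglucagon gene, took at least 10% of the unique molecular identifiers (UMIs, each 1 captured RNA molecule). Barcodes needed 1000 or more UMIs and 500 or more genes, with mitochondrial UMIs no higher than 15%. The insulin genes Ins1 and Ins2 together had to stay under 10%, Sst under 2% and Ppy under 5%, and UMIs of fewer than 4 of 10 cell cycle genes were allowed. The rule found 6429 alpha cells among 26121 filtered barcodes and 35079 deposited ones.

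The study asked what remains in islets long after CCR2-positive myeloid cells were depleted in newborn mice. CCR2-DTR mice (CCR2-DTR+/-) carry the diphtheria toxin receptor under control of Ccr2, a chemokine receptor gene of monocytes, and WT mice were their CCR2-DTR-/- littermates. All were females on a C57b6/J background, and both genotypes received diphtheria toxin, 4 injections at 48-hour intervals from postnatal day 2, before weaning to chow at 21 days. Islets were taken at 1 or 6 months, and each of the 4 groups is 1 10x Chromium library of 300 hand-picked islets pooled from 2 to 3 females. The groups are CCR2-DTR at 6 months, WT at 6 months, CCR2-DTR at 1 month and WT at 1 month. With 1 library a group there was no replicate check and no test. The intervals given are 95% counting intervals over UMIs or cells and say nothing about differences between animals, and fewer cells and less RNA per cell cannot be told apart in a share of UMIs.

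Alpha cells cleave proglucagon with the convertase PC2, the product of Pcsk2, and release glucagon when glucose is low, which raises glucose output by the liver. Their identity is held by transcription factors such as IRX1 and IRX2. Peptide YY and pancreatic polypeptide, products of Pyy and Ppy, are related peptide hormones of islet and gut endocrine cells. The 250 bases before the Gcg start are shown because this gene defines the cells (RefSeq, GRCm38.p6, chr2:62483654-62483903, minus strand, 5′ to 3′ along the gene, a TATAAAA box in capitals, which 4.98% of 32851 windows of this length hold on either strand).
Gcg: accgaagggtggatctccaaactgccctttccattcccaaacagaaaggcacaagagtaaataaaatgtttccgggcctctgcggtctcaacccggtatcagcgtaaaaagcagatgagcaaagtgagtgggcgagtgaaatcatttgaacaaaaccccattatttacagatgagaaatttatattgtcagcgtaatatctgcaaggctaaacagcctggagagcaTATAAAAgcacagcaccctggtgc

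At 1 month 2465 CCR2-DTR and 2390 WT alpha cells were found, and at 6 months 862 CCR2-DTR and 712 WT alpha cells. They made up 27.7% of filtered CCR2-DTR barcodes and 26.3% of WT barcodes at 1 month, and the ratio was 1.05 (0.995 to 1.115). For 6 months the shares were 19.6% in CCR2-DTR and 19.1% in WT, a ratio of 1.03 (0.927 to 1.134). The share was lower at 6 months than at 1 month in CCR2-DTR (ratio 0.709, 0.656 to 0.767) and in WT (0.729, 0.669 to 0.793). Among barcodes with at least 3000 UMIs the ratio was 0.806 in CCR2-DTR and 0.957 in WT. Over endocrine cells alone, alpha cells were 27.2% at 6 months against 38.3% at 1 month in CCR2-DTR, and 25.1% against 35.7% in WT. Over endocrine cells with at least 3000 UMIs they were 34.4% against 40.5% in CCR2-DTR and 37.9% against 35.9% in WT, so the lower share at 6 months was not seen in WT at that depth. The beta barcodes of WT at 6 months had a median of 2466 UMIs, against 17034 UMIs in WT at 1 month.

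Gcg chose the cells, so its level is a description. It took a median of 26.8% of the UMIs of a CCR2-DTR alpha cell and 26.6% of a WT one at 1 month, and 29.1% and 30.6% at 6 months. The 10% threshold fell in a thin part of the distribution: 44 CCR2-DTR and 39 WT barcodes at 1 month, and 8 and 9 at 6 months, met the other hormone limits with 5 to 10% Gcg. Just inside it, at 10 to 15%, lay 123 CCR2-DTR and 127 WT cells at 1 month and 24 CCR2-DTR and 15 WT cells at 6 months. The cell cycle limit removed 42 CCR2-DTR and 16 WT barcodes at 1 month, or 1.68% (1.21 to 2.26) and 0.665% (0.381 to 1.08) of cells that passed the hormone limits. At 6 months it removed 2 CCR2-DTR and 0 WT barcodes.

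**Figure D1:**
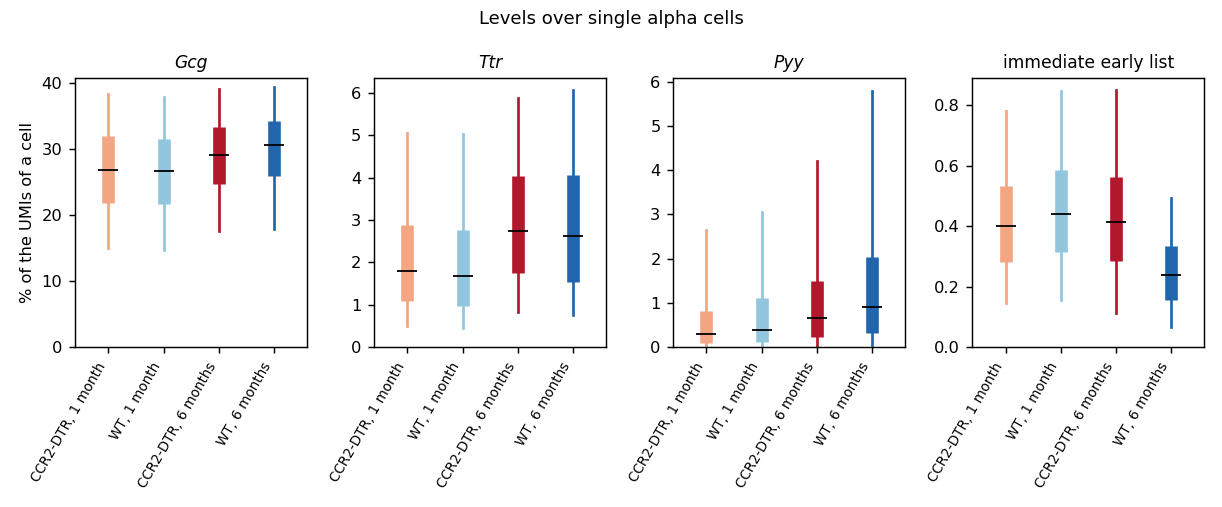
Percent of the UMIs of each alpha cell (y axes, linear) given by Gcg, Ttr, Pyy and the 26 immediate early genes together, in the 4 libraries (x axes). Black lines are medians, boxes the middle 50% of cells and thin lines the 5th to 95th percentile; Ttr and Pyy are higher at 6 months than at 1 month, and the immediate early list is lowest in WT at 6 months.

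Median depth per alpha cell was 8141 UMIs (CCR2-DTR) and 8455 UMIs (WT) at 1 month, and 18121 and 20468 UMIs at 6 months, with 15429787 to 22548119 UMIs per library in total. RNA of other cells was present and differed between libraries. Ins1 and Ins2 took a median of 2.89% of the UMIs of CCR2-DTR and 1.19% of WT alpha cells at 1 month, and 1.38% and 1.22% at 6 months. Endothelial cells, which do not make insulin, carried 5.20%, 2.68%, 3.77% and 3.604% in the same order, so insulin UMIs in alpha cells were not read as expression. An acinar enzyme UMI was found in 67.8% of CCR2-DTR and 9.33% of WT alpha cells at 1 month and in 95.1% and 44.8% at 6 months. The endothelial shares were 67.6%, 7.09%, 91.6% and 41.2%, at lower median depths of 4069, 3135, 5848 and 5917 UMIs. Such shares rise with depth, so they do not compare the cell types or the ages at equal depth. Summed macrophage markers were at 79.2 to 114.2 CPM (UMIs of a gene scaled to the same library total in every library) in the 4 libraries, endothelial markers at 45.8 to 111.9 CPM and lymphoid markers at 2.20 to 6.36 CPM. Mesenchymal markers stood at 127.3 CPM in CCR2-DTR and 53.5 CPM in WT at 1 month, and at 19.5 and 21.2 CPM at 6 months. Acinar markers summed to 196.0 CPM in CCR2-DTR and 13.6 CPM in WT alpha cells at 1 month, and to 253.4 and 28.1 CPM at 6 months. In endothelial cells they were higher, at 264.5, 18.5, 734.5 and 83.0 CPM in the same order.

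The label held against its markers. Ttr, the transthyretin gene, was at 31340 CPM in CCR2-DTR and 30702 CPM in WT alpha cells at 6 months, and at 22571 and 21322 CPM at 1 month, at least 8.15 times its highest level in beta, delta, gamma or endothelial cells of the same library. Irx1, an Iroquois factor gene, was at least 8.57 times higher and Irx2 at least 4.21 times higher than in the highest of those types. With every cell thinned to 1000 UMIs, Ttr had a UMI in 99.7 to 100% of alpha cells of each library, against 38.0% of CCR2-DTR and 18.5% of WT endothelial cells at 1 month and 21.5% and 16.6% at 6 months, the background in a type that should lack it.

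The 20 genes that stood furthest above all 4 other types in every library included Irx1, Ttr and Irx2. Gfra3, a receptor gene of the GDNF family, led with 25.2 CPM in CCR2-DTR and 26.3 CPM in WT at 1 month and 27.1 and 29.0 CPM at 6 months, at least 10.9 times the next type. Irx1 and Ttr came next, and Hhatl had rank 4 with a lowest ratio of 4.57. The arginine transporter gene Slc7a2 was at 735 to 780 CPM in the 4 libraries, and the glutamine transporter gene Slc38a5 at 58.8 CPM in CCR2-DTR and 59.5 CPM in WT at 6 months against 103.2 and 109.2 CPM at 1 month. The list also held the kinase gene Wnk3, the lipase gene Lpl, the pyruvate dehydrogenase kinase gene Pdk4, the phosphatase gene Ptprd and the thymosin beta 15 genes Tmsb15b1 and Tmsb15b2, near-identical copies between which reads may be split.

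**Figure D2:**
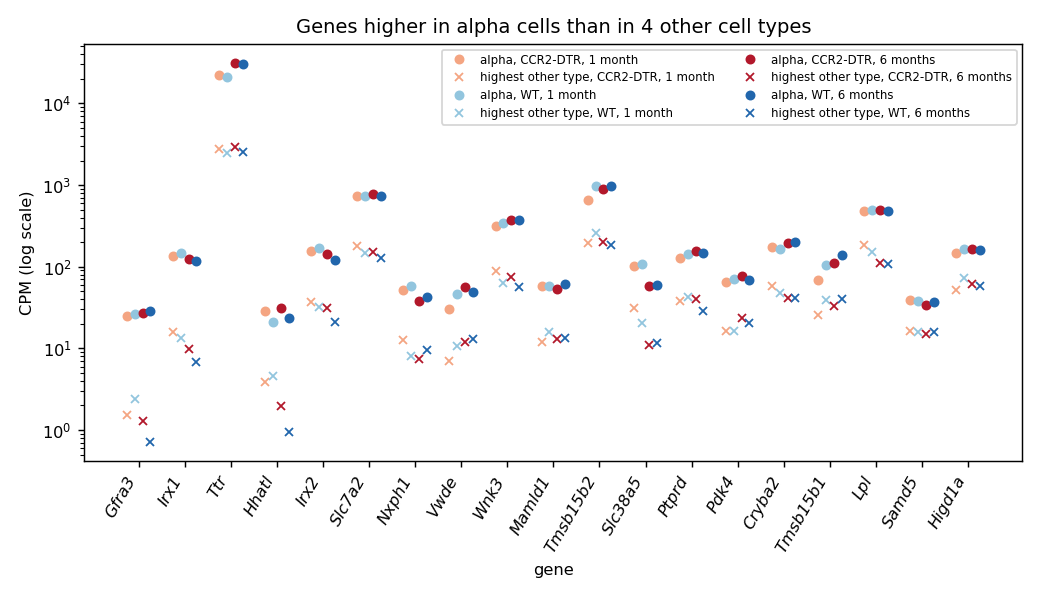
Levels (CPM, log axis) of 19 of the 20 genes with the highest ratio of alpha cells over the highest of beta, delta, gamma and endothelial cells, in each of the 4 libraries. Circles are alpha cells and crosses the highest other type; every circle lies above its cross, for Gfra3 by at least 10.9 times.

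With the genes of the cell rule, Gcg among them, and mitochondrial genes left out of the ranking, cells differed most in Pyy, the peptide YY gene. After thinning to 3000 UMIs per cell, the variance of its UMIs over cells was 44.6 times the mean (CCR2-DTR) and 49.0 times (WT) at 1 month, and 64.5 and 84.0 times at 6 months, where sampling alone gives 1. Ttr followed with 26.7 to 31.7 times. Cd74, Apoe, Lyz2 and H2-Ab1, which macrophages express among other cells, and Emcn, Flt1 and Kdr, genes of endothelial cells, were also among the 15 most variable genes. Those UMIs sat in few cells: Cd74 had UMIs in 90 of 862 CCR2-DTR alpha cells at 6 months, and 1 cell held 36.7% of them. Malat1, a nuclear RNA, and Gnas, an imprinted gene for a G protein subunit, had UMIs in all or all but 1 alpha cell of each library and were variable in every library.

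The rule capped Ppy at 5% and set no limit on Pyy. Pyy was at 13478 CPM in CCR2-DTR and 17310 CPM in WT alpha cells at 6 months, against 7155 and 8962 CPM at 1 month. That is 1.88-fold higher with age in CCR2-DTR and 1.93-fold higher in WT, while CCR2-DTR was 0.798-fold the WT level at 1 month and 0.779-fold at 6 months. The share of alpha cells with at least 1% of their UMIs from Pyy was 37.0% (33.8 to 40.3) of CCR2-DTR and 46.8% (43.1 to 50.5) of WT cells at 6 months, against 20.4% (18.8 to 22.1) and 28.0% (26.2 to 29.8) at 1 month. Both WT shares were above the CCR2-DTR share of the same age, and both 6-month shares above the 1-month share of the same genotype. Ppy reached 1% in 8.44% of CCR2-DTR and 10.9% of WT alpha cells at 1 month and in 11.3% and 16.01% at 6 months. Of those cells, 81.7%, 84.7%, 90.7% and 96.5% also had 1% Pyy. Over all alpha cells the Ppy median was 0.0550 to 0.0727% of UMIs in the 4 libraries, close to 0.0295 to 0.0534% in endothelial cells.

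CCR2-DTR and WT alpha cells at 1 month were compared over 5658 genes with at least 20 CPM in either library and at least 10 UMIs. A ratio of at least 1.5 either way counted as past the fold. In CCR2-DTR 35 genes (0.619%) were higher and 33 (0.583%) lower, 1.20% in either direction, and 98.8% of genes lay within 1.5-fold of the median gene. Counting hormone genes out of the total brought 7162 genes past the floor, of which 70 were higher and 24 lower. The largest ratios belonged to digestive enzyme genes (5 of 5 measured past the fold, median log2 4.25), Rgs5, Pcsk1 and other genes of the cell types whose RNA is described above. Highest under the naming rule, which leaves those out, was Rgs2, which shortens G protein signals, at 119.5 CPM in CCR2-DTR and 49.6 CPM in WT (log2 ratio 1.27, interval 1.17 to 1.37). At 6 months Rgs2 was at 131.2 CPM in CCR2-DTR and 98.9 CPM in WT, so WT at 1 month was the low library.

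Sox4, Errfi1 and Gadd45b were next among those described here. Sox4, an HMG-box factor gene, was at 227.8 CPM in CCR2-DTR and 109.4 CPM in WT (log2 1.06, 0.99 to 1.13). Errfi1, an inhibitor of the EGF receptor, was at 48.5 and 23.6 CPM (1.04), and Gadd45b, a stress response gene, at 143.9 and 80.7 CPM (0.83). Sox4, Errfi1 and Gadd45b were higher in CCR2-DTR at 6 months too, by 0.54, 0.54 and 0.49 on the log2 scale. In beta cells Rgs2, Sox4, Errfi1 and Gadd45b had log2 ratios of 2.43, 1.22, 1.34 and 1.38 at 1 month, beside a median gene at 0.20 there. At 6 months the beta cell ratios of Errfi1 and Gadd45b were -0.58 and -0.36, below 0. The other higher genes named by the rule were Arl4d, Bambi, Cd9, Noct, Oxtr and Slc37a4. Oxtr, the oxytocin receptor gene, was at 87.3 CPM in CCR2-DTR and 56.9 CPM in WT, and at 97.4 and 91.8 CPM at 6 months.

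Among genes lower in CCR2-DTR at 1 month, Ghrl, the ghrelin gene of epsilon cells, came first at 7.76 CPM against 65.5 CPM in WT. A single WT barcode held 1324 of the 1476 Ghrl UMIs, and without it WT stood at 6.75 CPM. The heat shock gene Hspa1b was at 38.1 CPM in CCR2-DTR and 60.3 CPM in WT (log2 -0.66), and Tomm7, part of the mitochondrial import pore, at 107.0 and 168.4 CPM (-0.65). Tmsb15b1, Eef1a2, Snhg8, Snhg3, Smim26, Rab26os and Vwde were lower by 0.60 to 0.63 on the log2 scale. Cytosolic ribosomal protein genes lay low as a group: 15 of 84 were past the fold downward, none upward, and 72 lay below the median gene (median -0.29 relative to it). Rpl37a, picked after its values were seen, was at 781 CPM in CCR2-DTR and 1247 CPM in WT at 1 month, and at 1288 and 1163 CPM at 6 months. The same genes had 0 of 84 past the fold downward in beta cells, 3 in gamma, 7 in delta, 9 in macrophages and 11 each in endothelial and mesenchymal cells. Over all genes, 0.11% were lower in beta, 0.819% in gamma, 2.17% in delta, 9.22% in macrophages, 2.21% in endothelial and 9.41% in mesenchymal cells, so these counts stand on different backgrounds. The medians of the list were 0.14 to 0.29 below the median gene in each type.

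Proteasome subunit genes shifted together by little. At 1 month 30 of 31 lay above the median gene in CCR2-DTR, none past the fold, with a median of 0.20 above it, and the group summed to 3170 CPM in CCR2-DTR and 2815 CPM in WT. At 6 months the sums were 2554 and 2665 CPM, with 5 of 31 above the median gene. In beta cells 30 of 31 also lay above the median gene at 1 month, and in endothelial cells 15 of 31. Of 8 measured beta markers, 5 were past the fold upward in CCR2-DTR alpha cells at 1 month, beside the insulin shares above. Glp1r, the GLP-1 receptor gene, at 20.7 CPM in CCR2-DTR and 8.56 CPM in WT, and the convertase gene Pcsk1, at 24.5 and 8.91 CPM, were higher beside them. The part of free beta cell RNA in these values was not tested.

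Alpha identity genes were close between the genotypes. None of 20 measured alpha transcription factor genes was past the fold at 1 month, and none of 19 at 6 months. At 1 month 17 of 20 lay below the median gene in CCR2-DTR (median -0.10 relative to it), and at 6 months 12 of 19 lay above it. Pcsk2, the convertase that makes glucagon, was at 3349 CPM in CCR2-DTR and 3716 CPM in WT at 1 month, and at 3192 and 2848 CPM at 6 months. Interferon and MHC class I genes had 0 of 8 past the fold at either age. Ifih1, the viral RNA sensor MDA5, ranked first under the naming rule among genes lower at both ages, by the smaller of the 2 ratios. That ratio was 1.36-fold, short of the fold. Ifih1 was at 42.5 CPM in CCR2-DTR and 60.8 CPM in WT at 1 month and 48.9 and 66.7 CPM at 6 months.

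**Figure D3:**
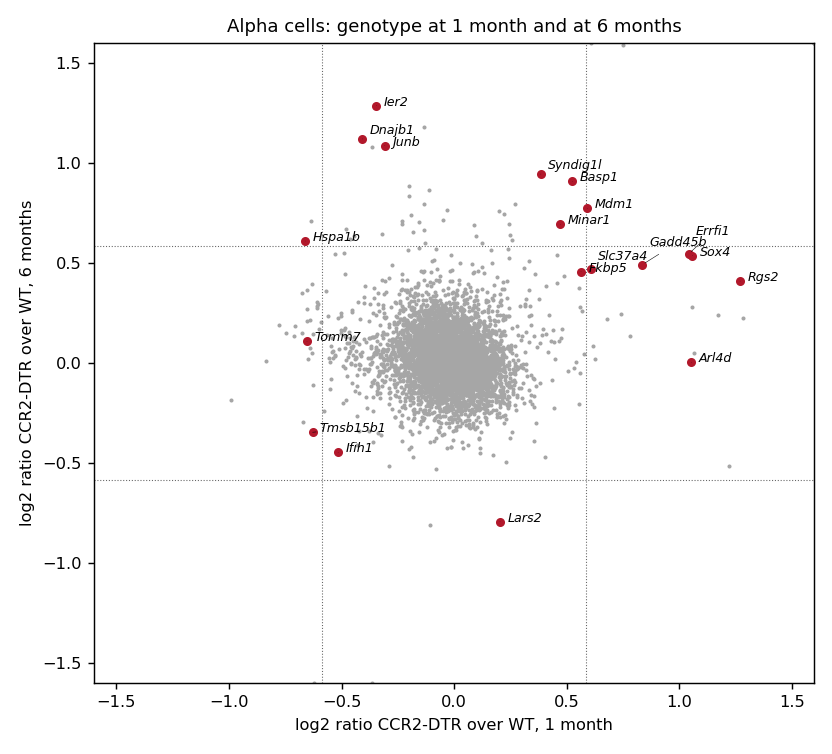
Log2 ratio of CCR2-DTR over WT in alpha cells at 1 month (x axis) and 6 months (y axis), 1 dot per gene measured at both ages, with dotted lines at 1.5-fold and a few genes beyond the axes drawn at the edge. Rgs2 lies far right and Ier2 high, while Sox4, Errfi1, Mdm1 and Basp1 are higher in CCR2-DTR at both ages.

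At 6 months 53 of 5485 genes (0.966%) were higher in CCR2-DTR and 7 (0.128%) lower, 1.09% in either direction. With hormone genes out of the total, 7156 genes passed the floor, of which 72 were higher and 21 lower. Digestive enzyme genes had the largest ratios (6 of 6 measured past the fold, median log2 3.13), followed by Apoe, at 57.2 CPM in CCR2-DTR and 10.6 CPM in WT, and Cd74, at 64.0 and 21.3 CPM. Macrophages express both, among other cells. Without the top cell of each library Apoe was at 35.0 and 6.75 CPM and Cd74 at 40.6 and 8.26 CPM. The CCR2-DTR library held 113 macrophage and 85 lymphoid barcodes and the WT library 70 and 8, and the source of these UMIs was not tested. Immediate early genes came after the digestive enzyme genes, Apoe and Cd74. Cells switch them on within minutes of a stimulus, and they also respond to tissue dissociation. Of 13 measured, 12 were past the fold upward and all 13 lay above the median gene, with a median of 0.75 above it. Fos was at 781.6 CPM in CCR2-DTR and 423.9 CPM in WT (log2 0.88, 0.84 to 0.93). Egr1 was at 411.2 and 237.5 CPM (0.79), Ier2 at 77.1 and 31.6 CPM (1.29), and the phosphatase gene Dusp1 at 115.2 and 50.9 CPM (1.18).

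The 1-month libraries give the levels of these genes at the other age. Fos was at 675.3 CPM in CCR2-DTR and 775.2 CPM in WT, Egr1 at 506.6 and 556.6 CPM, Ier2 at 86.8 and 110.3 CPM, and Dusp1 at 105.6 and 115.8 CPM. WT at 6 months was the low library for each of these genes. For Zfp36, which codes for an mRNA decay factor, WT at 6 months was lowest too, at 33.5 CPM, close to 35.8 CPM in CCR2-DTR at 1 month. Zfp36 was at 46.2 CPM in WT at 1 month and, like Fos, highest in CCR2-DTR at 6 months, at 70.9 CPM. Over single cells the 26-gene list took a median of 0.412% of UMIs (CCR2-DTR) and 0.239% (WT) at 6 months, and 0.399% and 0.440% at 1 month. The 75th percentile of WT at 6 months, 0.335%, lay below the other 3 medians, so the lower level was spread over most cells.

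In the other cells of the same libraries at 6 months, 13 of 18 measured members of the list were past the fold upward in mesenchymal cells, 8 of 19 in macrophages, 5 of 11 in delta cells and 2 of 14 in gamma cells, against 0 of 9 in beta cells and 0 of 19 in endothelial cells. The share of all genes past the fold upward was 17.5% in mesenchymal cells, 11.3% in macrophages, 1.44% in delta, 1.18% in gamma, 0.218% in beta and 2.92% in endothelial cells. The medians of the list above the median gene were 1.03, 0.51, 0.49, 0.24, 0.28 and 0.12 in that order, and the difference between cell types was not tested. Promoters of members that moved together are shown with matches to the elements through which cAMP and serum act. Of 22 list genes with a RefSeq promoter, 3 (13.6%) had the cAMP response element TGACGTCA, on either strand, in the 250 bases before a start, against 1.77% of 27025 genes. A serum response element (CArG box) was found in 2 of 22 (9.09%), against 1.62% of genes. The TATAAAA box was found in 0 of 22, against 5.85% of genes. A heat shock element core (TTCNNGAA) was found in 1 of 22 (4.55%), against 8.11%. Egr1 and Ier2 were not among the 22 genes searched, and Fos and Junb were searched and had no match to any of these elements. These are letter matches over the whole list, including genes not measured in alpha cells, and the shares were not tested. The cAMP and serum response elements are shown for Btg2, an antiproliferative gene (chr1:134079156-134079405, minus strand), Dusp1 (chr17:26508473-26508722, minus strand) and Zfp36 (chr7:28379229-28379478, minus strand). The build is GRCm38.p6, capitals mark the cAMP response element in Btg2 and Dusp1 and the serum response element in Zfp36, and the strand is that of the gene.
Btg2: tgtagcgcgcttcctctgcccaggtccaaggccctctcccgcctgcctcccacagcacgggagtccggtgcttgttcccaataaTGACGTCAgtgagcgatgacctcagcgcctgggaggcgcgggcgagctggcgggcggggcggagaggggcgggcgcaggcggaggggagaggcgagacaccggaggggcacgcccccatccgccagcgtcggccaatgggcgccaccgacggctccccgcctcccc
Dusp1: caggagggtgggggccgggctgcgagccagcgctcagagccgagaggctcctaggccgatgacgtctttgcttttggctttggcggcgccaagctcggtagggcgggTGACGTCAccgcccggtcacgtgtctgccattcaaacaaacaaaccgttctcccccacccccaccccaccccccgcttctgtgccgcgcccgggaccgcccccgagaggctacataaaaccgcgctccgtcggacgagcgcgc
Zfp36: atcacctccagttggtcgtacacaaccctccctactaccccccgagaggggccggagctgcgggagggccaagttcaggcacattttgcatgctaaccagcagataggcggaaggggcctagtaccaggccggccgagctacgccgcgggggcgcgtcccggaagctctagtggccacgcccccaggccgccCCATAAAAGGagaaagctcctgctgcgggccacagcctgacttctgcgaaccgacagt

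**Figure D4:**
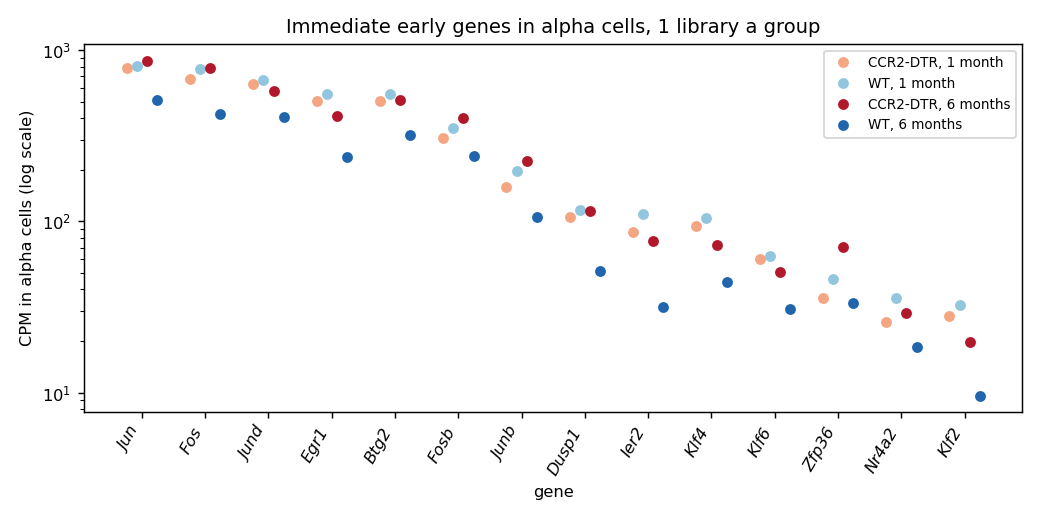
Level (CPM, log axis) of each of the 14 immediate early genes measured in alpha cells, 1 point per library. WT at 6 months is the lowest point for all of them, for Fos at 423.9 CPM, while CCR2-DTR at 6 months lies near both 1-month libraries for most.

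Some heat shock genes and Socs3 were also higher in CCR2-DTR at 6 months. Of 17 measured heat shock genes, 3 were past the fold upward: Dnajb1, an HSP40 co-chaperone, at 117.8 CPM in CCR2-DTR and 54.2 CPM in WT, Hspa1a and Hspa1b. Socs3, which brakes JAK-STAT signalling, was at 30.5 CPM in CCR2-DTR and 12.7 CPM in WT (log2 1.27). Both Dnajb1 and Socs3 were lower at 1 month in CCR2-DTR, at 65.0 and 14.5 CPM. Basp1, a membrane-bound growth cone gene, was at 267.0 CPM in CCR2-DTR and 142.4 CPM in WT (0.91), and Syndig1l, Tcp11l2 and Kcnip3 were higher by 0.94, 0.83 and 0.79 on the log2 scale. Glucocorticoid-responsive genes lay above the median gene in 10 of 11 cases (median 0.42 above it), 2 of them past the fold, Dusp1 and Cebpd.

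Of the 7 genes lower in CCR2-DTR at 6 months, 3 were haemoglobin genes of red cells, whose markers summed to 0.475 CPM in CCR2-DTR and 177.2 CPM in WT. At 1 month those markers summed to 63.8 CPM in CCR2-DTR and 90.7 CPM in WT. Tspan8, which the naming rule leaves out, was at 22.6 CPM in CCR2-DTR and 39.7 CPM in WT. Also lower were Lars2, the mitochondrial leucyl-tRNA synthetase gene, at 48.3 CPM against 83.7 CPM in WT (log2 -0.79), and Gstp1, a glutathione transferase gene, at 20.7 against 35.2 CPM (-0.76). WT at 6 months was the high library for both: Lars2 was at 34.3 CPM in CCR2-DTR and 29.8 CPM in WT at 1 month, and Gstp1 at 15.04 and 15.26 CPM. Beta, delta and endothelial cells had Lars2 ratios of -0.68, -1.09 and -0.55 and Gstp1 ratios of -0.95, -0.72 and -0.91, in the same direction. All 5 measured acinar markers were past the fold upward in CCR2-DTR, at a sum of 253.4 CPM against 28.1 CPM in WT, beside the acinar shares above.

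Of 5319 genes measured at both ages, 7 were past the fold upward in CCR2-DTR at both, out of 23 at 1 month and 43 at 6 months, and 1 downward at both, out of 30 and 4. Over all 5319 genes the ratios at the 2 ages had a rank correlation (Spearman) of -0.13 and a Pearson correlation of 0.21. The genes named next were picked for agreeing at both ages. Under the naming rule, which leaves out enzyme and predicted genes, Mdm1 alone passed the fold at both ages, at 79.8 CPM in CCR2-DTR and 53.0 CPM in WT at 1 month and 58.0 and 34.0 CPM at 6 months. Errfi1, Sox4, Basp1, Gadd45b, Minar1, Slc37a4, Fkbp5, Hhatl and Cry2 came next, with the smaller of the 2 log2 ratios between 0.39 and 0.54. Fkbp5, a chaperone gene that glucocorticoids induce, was at 104.8 CPM in CCR2-DTR and 71.0 CPM in WT at 1 month, and at 107.3 and 78.2 CPM at 6 months. Its log2 ratio was positive in beta, delta and endothelial cells too, from 0.49 to 0.82 at 1 month and from 0.31 to 0.82 at 6 months.

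UMIs of the chemokine receptor genes Ccr3 and Ccr2 were more frequent in CCR2-DTR alpha cell barcodes. Ccr3 gave 129 UMIs from CCR2-DTR alpha cells against 1 from WT cells at 1 month (log2 ratio 7.11, interval 4.61 to 12.43), and 104 against 2 UMIs at 6 months (5.57, 3.69 to 8.64). With cells thinned to 1000 UMIs, a Ccr3 UMI was found in 0.609% of CCR2-DTR alpha cells at 1 month and 0.464% at 6 months, below the 1.20% and 1.49% of CCR2-DTR endothelial cells. Whether the Ccr3 UMIs of alpha cells came from background RNA or from expression was not tested. For Ccr2 the thinned shares were 0.527% and 0.116% in CCR2-DTR alpha cells, against 0.344% and 0.597% in CCR2-DTR endothelial cells. Median depths were 8141 and 18121 UMIs in CCR2-DTR alpha cells and 4069 and 5848 UMIs in CCR2-DTR endothelial cells. For Ccr2 the counts were 93 against 0 at 1 month, at least 33.3-fold higher with WT set to a floor of 3 counts in its library. Of Ccr2 at 6 months, 41 UMIs lay in 29 CCR2-DTR cells and 15 UMIs in 2 WT cells, 14 of them in 1 cell. Ccr1 counts were 2 against 3 at 1 month and 3 against 0 at 6 months. All stood below the 20 CPM floor and enter no count above.

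More genes were past the fold between the ages than between the genotypes. In CCR2-DTR alpha cells 108 of 5647 genes (1.91%) were higher at 6 months than at 1 month and 113 (2.00%) lower, 3.91% in either direction. In WT 54 of 5672 (0.952%) were higher and 130 (2.29%) lower, 3.24% in either direction, around a median gene at -0.11 on the log2 scale, and relative to that gene 74 were higher and 68 lower. With hormone genes out of the total the WT counts were 127 higher and 103 lower, of 7210 genes past the floor. Relative to its median gene CCR2-DTR had 138 higher and 82 lower. Of 5495 genes measured in both genotypes, 27 were higher in both, out of 94 in CCR2-DTR and 46 in WT, and 35 lower in both, out of 96 and 113.

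Mt2, Snhg11, Ina, Mt1 and Upk3a led the genes higher at 6 months in both genotypes. Mt1, a metal-binding protein gene, was at 160.1 CPM at 6 months against 48.3 CPM at 1 month in CCR2-DTR, and at 148.5 against 57.9 CPM in WT. Mt2 was at 30.5 against 8.14 CPM in CCR2-DTR (log2 1.90) and 41.1 against 9.67 CPM in WT (2.09). Snhg11, a long noncoding RNA, was at 128.8 against 28.0 CPM in CCR2-DTR and 109.0 against 29.8 CPM in WT. Tmem59l, Ina, an intermediate filament gene, Dnm3, Stmn3, Stxbp6 and the uroplakin gene Upk3a were higher as well. In beta cells Mt1, Mt2, Snhg11 and Tmem59l had log2 ratios of 2.16, 2.33, 2.85 and 2.99 in CCR2-DTR and 1.21, 1.54, 3.35 and 3.23 in WT, whereas Upk3a had -1.14 and -0.05.

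Marcksl1, Pou3f4 and Vgf led the genes lower at 6 months in both genotypes. Marcksl1, a membrane-cytoskeleton gene of growing cells, was at 9.15 CPM at 6 months against 39.8 CPM at 1 month in CCR2-DTR (log2 -2.12) and 8.81 against 35.5 CPM in WT (-2.01). Pou3f4, a POU-domain factor of the alpha lineage, was at 10.99 against 30.4 CPM in CCR2-DTR and 8.04 against 34.9 CPM in WT. Vgf, a secretory granule protein gene, was at 15.7 against 37.9 CPM and 10.6 against 36.1 CPM. Olfm1, Glrx, Cdk14, Slc38a5, Fxyd3, Dpp4, the peptidase that clips GLP-1, and Fgd2 were lower too. Adrb1, an adrenaline receptor gene below the floor, was at 6.47 against 15.8 CPM in CCR2-DTR and 5.12 against 13.1 CPM in WT.

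Alpha transcription factor genes lay low at 6 months. In CCR2-DTR 16 of 20 were below the median gene (median -0.13 relative to it) and 1 was past the fold, Pou3f4. In WT 19 of 20 were below (-0.37) and 4 past the fold, among them Pou3f4, Foxa2 and Insm1. Foxa2, a forkhead factor of endocrine cells, was at 79.5 CPM at 6 months against 99.1 CPM at 1 month in CCR2-DTR, and at 72.8 against 109.2 CPM in WT (log2 -0.59). Ttr was higher, with log2 ratios of 0.47 in CCR2-DTR and 0.53 in WT, and the granule gene Chga was at 7054 against 4876 CPM in CCR2-DTR and 6492 against 5140 CPM in WT. Cholesterol synthesis genes were below the median gene in 10 of 11 cases in each genotype (medians -0.35 in CCR2-DTR and -0.28 in WT relative to it). Sqle, a rate-limiting enzyme of that pathway, was at 17.8 against 29.8 CPM in CCR2-DTR and 18.8 against 25.1 CPM in WT.

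**Figure D5:**
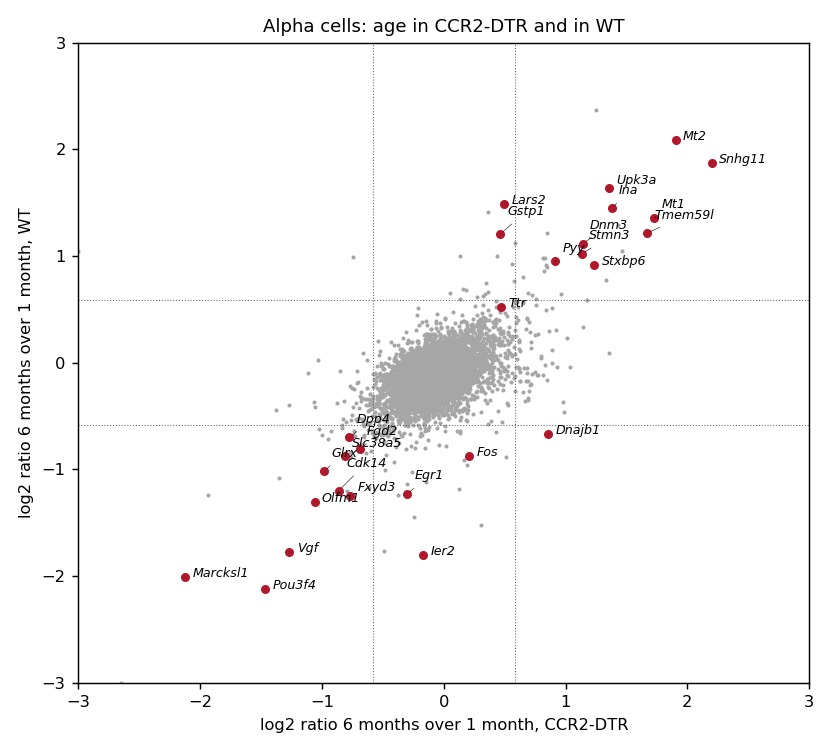
Log2 ratio of 6 months over 1 month in CCR2-DTR (x axis) and WT alpha cells (y axis), 1 dot per gene measured in both, with dotted lines at 1.5-fold and genes beyond the axes drawn at the edge. Mt2 and Snhg11 are high and Marcksl1 and Pou3f4 low in both, while Ier2 and Egr1 are low in WT.

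Some ratios differed by genotype. Immediate early genes had 1 of 14 past the fold upward at 6 months in CCR2-DTR and 12 of 14 downward in WT, with medians of 0.13 and -0.81 relative to the median gene. Dnajb1 was at 117.8 CPM at 6 months against 65.0 CPM at 1 month in CCR2-DTR, and at 54.2 against 86.2 CPM in WT. Hspa1b was at 97.7 against 38.1 CPM in CCR2-DTR and at 64.1 against 60.3 CPM in WT. Ribosomal protein genes had 17 of 84 past the fold upward in CCR2-DTR and 1 in WT. Each of these comparisons uses a library that also enters a genotype comparison, and the difference between them was not tested.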

How the data were processed

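Single-cell RNA was measured in 4 islet libraries on the 10x Chromium platform. The authors deposited matrices of raw UMI counts per gene and barcode, made with Cell Ranger 5.0.1 on mm10 per the submitters' processing notes, and gene and barcode names in separate files. Barcodes were filtered and chosen as the report describes, and CPM were computed from counts added up over the alpha cells of a library. No ambient RNA was subtracted. Doublets were not removed in the values given, and an alternative removed cells with a Scrublet score over 0.25. Of the alpha cell barcodes, 17 and 18 at 1 month and 5 and 3 at 6 months (CCR2-DTR and WT) also occur in another library, and cells were kept.

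Ratios carry exact conditional 95% counting intervals, shares exact Clopper-Pearson ones, and a count of 0 was set to 3 counts. Intervals cover counting error only. Genes entered a comparison with 20 CPM in either library and 10 UMIs. A ratio of 1.5 was the fold. Beta, delta and gamma cells compared with alpha cells had at least 3000 UMIs, a limit chosen after seeing the data. Genes named for a comparison are the 10 highest and 10 lowest past the fold with an interval excluding 1. The rule leaves out predicted, ribosomal protein, haemoglobin, digestive enzyme, mitochondrial and selection genes, and genes under 0.2 times their level in another cell type. Genes named for both ages or genotypes are ranked by the smaller ratio. Members of the alpha lists may be named, and other list members were picked after their values were seen. Members and lists were chosen with earlier results of these data known. Promoters came from RefSeq (GRCm38.p6). The steps were tested on simulated data and run in Python 3.11.15 with numpy 2.4.6, scipy 1.17.1, pandas 2.3.3 and scanpy 1.11.5. Alternatives were other gene floors, totals without hormone genes, thinned cells, and stricter cell rules. A few genes that meet the naming rule are not reported here.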

Additional observations from a re-analysis of the deposited data

Results flagged for a closer look

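Dnajb1, the HSP40 co-chaperone gene, moved in opposite directions with age: the log2 ratio of 6 months over 1 month was 0.86 in CCR2-DTR and -0.67 in WT alpha cells. Hspa1b, an inducible HSP70 gene, moved in opposite directions between the genotypes: the log2 ratio of CCR2-DTR over WT was 0.61 at 6 months and -0.66 at 1 month. Each group is 1 library, and neither difference was tested.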

How the results depend on the processing

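No paired analysis was possible because each group is 1 library and no replicate numbers are shared. With 1 library a group, differences between animals were not measured. Counts of genes past 1.5-fold depended on the floor, and so did the number of genes compared. Between the genotypes at 1 month 5658 genes passed it, 2441 with a 50 CPM floor, 15320 with none and 7162 with hormone genes out of the total. At 1 month 35 genes were higher in CCR2-DTR: 13 with a 50 CPM floor, 1163 with none, 70 with hormone genes out of the total and 124 under the stricter limit on other hormones. The 33 lower became 731 with no floor and 66 under the stricter limit. At 6 months 53 were higher: 26 with the 50 CPM floor, 1008 with none and 166 in thinned cells. The 7 lower became 3, 647 and 107 under these settings, 21 with hormone genes out, 11 under the stricter limit and 12 without cells holding 2 markers of a non-endocrine type, a choice made after seeing the data. With age, 108 higher in CCR2-DTR became 53 with the 50 CPM floor and 968 with none, and 113 lower became 34 and 1812, 199 in thinned cells and 257 under the stricter limit. In WT, 54 higher became 19 and 814, 127 with hormone genes out and 85 thinned, and 130 lower became 47 and 1870, and 269 thinned. The share ratio of CCR2-DTR over WT was 0.118 under the stricter limit at 1 month and 0.903 over barcodes with 3000 UMIs at 6 months. The ratio of 6 months over 1 month was 0.795 with Gcg at 20% and 0.806 with 3000 UMIs in CCR2-DTR, and 0.824 and 0.957 in WT. Under the stricter limit it was 5.72 in CCR2-DTR, where 228 alpha cells remained at 1 month. The stricter limit was 2% for Ins1 and Ins2 together, 0.5% for Sst and 1% for Ppy. At 1 month the median insulin share under the main rule was 2.89% in CCR2-DTR and 1.19% in WT alpha cells. Shares over endocrine cells with 3000 UMIs, given in the report, were also added after seeing the data. Ghrl at 1 month turned to 0.31 with Gcg at 20% and 0.20 with the Scrublet limit. The cause of these shifts was not tested. Of the other values, 737 for named genes and 1241 for lists moved by less than their counting interval or kept their count, while 53 and 109 moved.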
